A study of Arabidopsis thaliana with 24 samples.

Results

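Gene expression in *Arabidopsis thaliana* seedlings of the Columbia wild type (Col) was compared between the hours around subjective dawn and the hours around subjective dusk. The dawn arrays were those of circadian time (CT) 20 and CT0 (92, 116, 72 and 96 h after release into continuous light), and the dusk arrays were those of CT8 and CT12 (80, 104, 84 and 108 h), 4 arrays a side, chosen by harvest time alone and making up 8 of the 12 Col arrays and of 24 arrays in all. Whole seedlings were raised on sucrose medium in light/dark cycles for a week, released into continuous white light at constant temperature, and harvested every 4 h through days 4 and 5 of constant light, with total RNA from 1 pool of seedlings hybridized to each AGRONOMICS1 tiling array. Both sides of the comparison thus carry the same genotype, light and temperature and differ by the time of harvest. The other 12 arrays hold *rve8-1*, a T-DNA insertion line of the clock gene *RVE8*, harvested at the same times, and served here only to ask whether the dawn to dusk difference depends on the genotype. Each value is a log2 expression level as deposited, and differences are dawn minus dusk on that scale, so that a positive difference means a higher level at dawn.

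The plant circadian clock is a network of transcription factors that repress or activate one another in turn through the day. MYB-like factors such as CCA1 and LHY accumulate around dawn and repress genes of the evening, pseudo-response regulators follow one another through the day and repress the MYB-like genes, and the evening complex acts in the first part of the night. In constant light this network keeps running without external cues and sets the time of day at which genes of photosynthesis, starch turnover, pigment synthesis, cold tolerance and flowering are transcribed.

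A gene was kept when its level exceeded 4.5 in at least 4 of the 12 Col arrays, which held for 18859 of 30237 genes. Since 4 arrays suffice, a gene could pass on 1 side of the comparison alone. Tests were made with limma on 1 mean per circadian time, with the day 4 and day 5 arrays of a time as its 2 replicates, and a gene was called where its p, adjusted by Benjamini and Hochberg over all genes kept, was under 0.05. These replicates are single harvests a day apart, and nothing in the labels says more about their cultures, so the p values measure the spread between harvests on different days. The median residual SD was 0.138. The 25th percentile of the levels lay between 3.91 and 4.07 on the dawn arrays and between 3.76 and 3.88 on the dusk arrays, without overlap, and the part of this shift in the results was not tested beyond the alternative given with the counts. Marker genes of green tissue (*RBCS1A*, *RCA*, *PETE2*, *PSAD-1*, *GAPA*) were high on all arrays, with summed levels of 15.54 to 15.63 at dawn and 15.55 to 15.63 at dusk, and those of root (6 genes) summed to 11.64 to 12.02 at dawn and 11.64 to 12.07 at dusk. Flower and seed markers (6 genes) summed to 6.81 to 7.22 at dawn and 7.05 to 7.47 at dusk, and the seed storage gene *SESA1* never exceeded 4.5. Of these 3 marker lists only *RCA*, which encodes Rubisco activase, was called, with a difference of 0.39 ± 0.06 (SE from limma). In RNA of whole seedlings, fewer cells of a type and less RNA per cell cannot be told apart.

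Of the 18859 genes, 2895 (15.4%) differed between dawn and dusk, 1194 (6.33%) being higher and 1701 (9.02%) lower at dawn. Most differences were small. The median was 0.51 among the genes higher at dawn (25th to 75th percentile, 0.38 to 0.73), of which 148 differed by at least 1 and 27 by at least 2, and -0.43 among those lower at dawn (-0.60 to -0.33), of which 130 and 24 did so. The median over all genes kept was -0.04. Levels on the 4 dawn and 4 dusk arrays did not overlap for 3462 genes (18.4%). By their mean levels at the 6 circadian times, 528 of the genes higher at dawn were highest at CT0, 384 at CT20, 153 at CT16 and 129 at CT4. Of the genes lower at dawn, 953 were highest at CT8, 509 at CT12, 138 at CT4 and 101 at CT16. These counts rest on the arrays that gave the calls, so a peak within the higher window is favoured. With a covariate for each array's 25th percentile, an alternative chosen after the data were seen, 1108 genes were called and 56.0% of them were higher at dawn, against 41.2% without it. Leaving out the array of 84, 92, 104 or 108 h brought the count to between 1804 and 1829. Requiring a level above 4.5 on all 12 Col arrays left 15123 genes, of which 3036 were called.

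The 10 largest differences in each direction among called genes whose arrays did not overlap are given next. At the dawn end stood *COL2*, a CONSTANS-like B-box gene, with 9.24, 8.56, 8.99 and 8.82 at dawn (72, 92, 96 and 116 h), against 5.51, 5.09, 5.57 and 5.37 at dusk (80, 84, 104 and 108 h), a difference of 3.52 ± 0.2 or 11.5-fold (adjusted p = 2.31e-05). *BETA-OHASE 2*, which encodes a carotene hydroxylase of the xanthophyll pathway, had 8.42, 8.23, 8.45 and 8.49 at dawn, against 4.88, 4.99, 5.3 and 5.76 at dusk, a difference of 3.16 ± 0.21 (adjusted p = 4.17e-05). *LNK3*, *LHY* and *CCA1* of the clock and *GBSS1* of starch synthesis were also among these 10 and are described with their groups. The B-box gene *BBX16* followed with 2.74 ± 0.21, *ASG4* with 2.76 ± 0.23, and the genes *At4g27360* and *At1g13650*, for which the annotation gives no name, with 2.95 ± 0.23 and 2.76 ± 0.15.

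The lowest measured difference belonged to *At1g07050*, which the annotation does not name. It had 3.12, 4.72, 4.24 and 4.81 at dawn, against 9.35, 8.68, 8.99 and 8.44 at dusk, a difference of -4.64 ± 0.26 (adjusted p = 2.09e-05). Its 4 dusk arrays lay far above the threshold of 4.5, while the 2 CT0 arrays lay under it, where a level is not shown to stand above background, so no fold is given here or for other genes with such arrays. *At5g23240*, annotated as the DNAJ protein DJC76, had 3.43, 5.46, 4.48 and 5.23 at dawn, against 8.82, 8.43, 8.72 and 8.22 at dusk, a difference of -3.9 ± 0.24 (adjusted p = 3.16e-05). *At2g33830*, annotated as the dormancy-associated gene *DRM2*, had 5.76, 7.17, 6.83 and 7.35 at dawn, against 10.76, 10.54, 10.48 and 10.14 at dusk, a difference of -3.7 ± 0.31 (adjusted p = 0.00011). In each of these genes the array of 72 h was the lowest of the 8. *COR27* of the cold list came next, then *At5g62360* (-2.98 ± 0.22), *At1g56300* (-2.71 ± 0.27), *At4g16146* (-2.65 ± 0.3), *At4g33980* (-2.59 ± 0.2), *BT2* (-2.51 ± 0.2), which encodes a BTB and TAZ domain protein, and *At1g51090* (-2.47 ± 0.17).

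**Figure D1:**
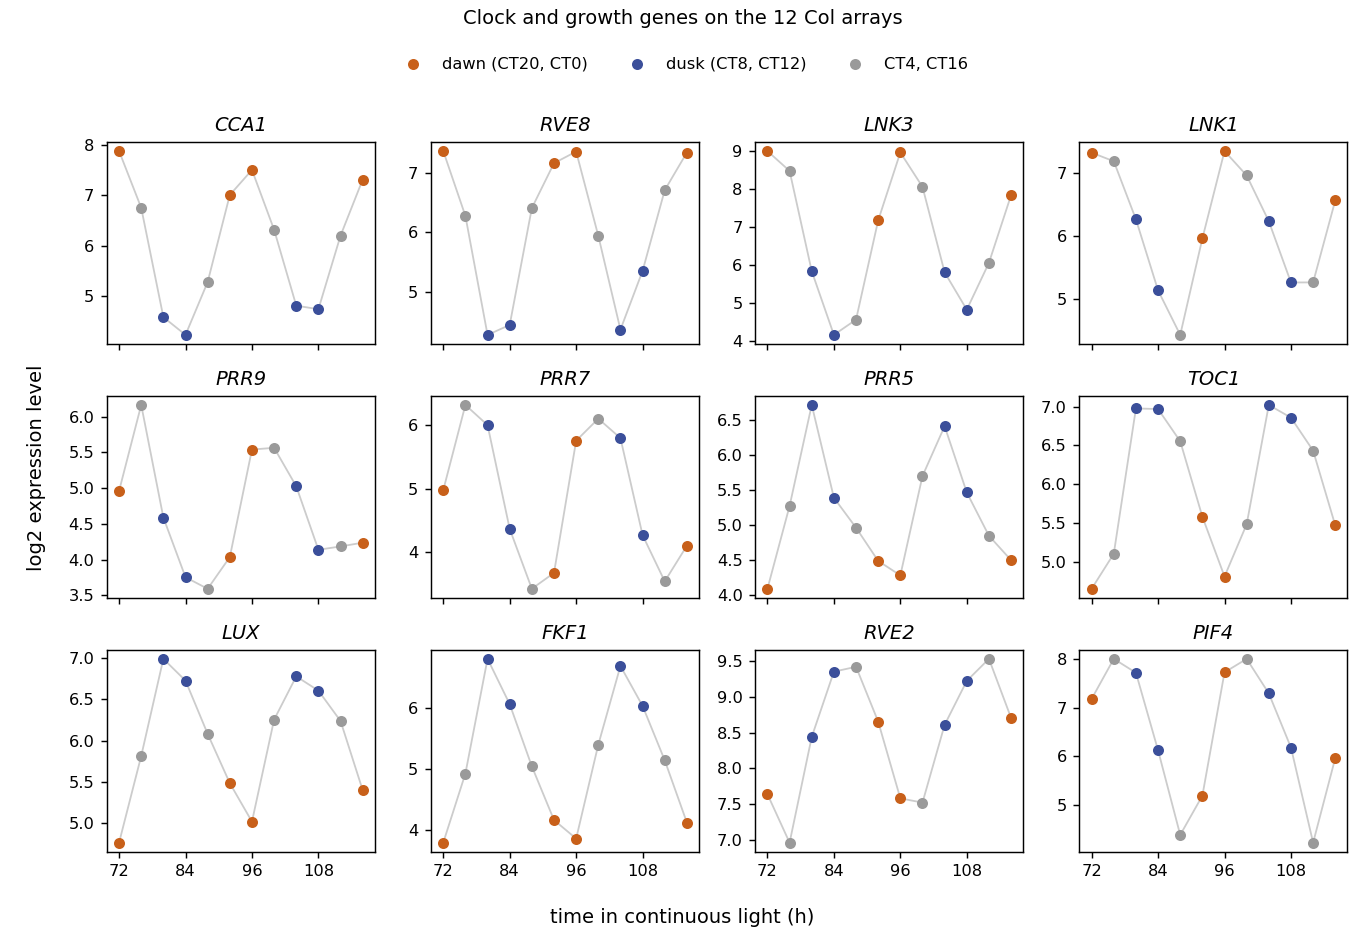
Log2 expression levels (y axis) of 12 genes on the 12 Col arrays against time in continuous light in h (x axis), 1 point per array, with dawn arrays (CT20 and CT0) in orange, dusk arrays (CT8 and CT12) in blue and the 4 arrays of CT4 and CT16 in grey. *CCA1* and *RVE8* lie between 7.00 and 7.88 on the dawn arrays and at or under 5.36 on the dusk arrays, *TOC1* and *FKF1* show the opposite order, and *PRR7* and *PIF4* are highest at CT4, between the windows.

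Among the MYB-like factors of the morning, 5 of 7 were higher at dawn, 1 was lower and 1 was not called (median, 2.06), beside 6.33% of all genes higher and 9.02% lower. *RVE3*, *RVE5* and *RVE6*, which the paper names among the closest homologs of RVE8, are not in this list. Whether any of them appears elsewhere in these results under another name was not examined. *CCA1*, a repressor of evening genes, had 7.88, 7.0, 7.5 and 7.31 at dawn, against 4.58, 4.22, 4.81 and 4.73 at dusk, a difference of 2.84 ± 0.21 (adjusted p = 7.45e-05). *LHY*, which encodes its close relative, had 8.22, 7.63, 7.92 and 7.82 at dawn, against 4.87, 4.35, 5.07 and 5.33 at dusk, a difference of 2.99 ± 0.25 (adjusted p = 0.000107). Dawn and dusk arrays of both genes stood more than 2 apart, and the lowest array of each was that of 84 h.

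*RVE8*, which encodes an activator of evening genes, had 7.37, 7.16, 7.36 and 7.34 at dawn, against 4.28, 4.45, 4.37 and 5.36 at dusk, a difference of 2.69 ± 0.18 (adjusted p = 4.17e-05). Its 4 dawn arrays lay between 7.16 and 7.37, while among its dusk arrays that of 108 h stood above the rest, which lay under 4.5. *RVE4*, which encodes a close relative of RVE8, differed by 0.66 ± 0.06 (adjusted p = 0.00025) and *RVE1*, which links the clock to auxin synthesis, by 2.06 ± 0.14 (adjusted p = 4.92e-05), and both kept dawn and dusk arrays apart. *RVE2* stood apart from this group, with 7.64, 8.65, 7.58 and 8.7 at dawn, against 8.44, 9.35, 8.61 and 9.22 at dusk, a difference of -0.76 ± 0.11 (adjusted p = 0.00249). Its arrays overlapped, since CT20 levels lay near those of CT8, and its mean was highest at CT16. The call was lost when dawn and dusk were fitted with 1 mean each (adjusted p = 0.156). *RVE7* showed 0.12 ± 0.21 (adjusted p = 0.737), with a mean of 7.55 at CT4, above all the other times.

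All 4 *LNK* genes, which encode coactivators that bind RVE8, were higher at dawn (median, 2.40), beside 6.33% of all genes. *LNK3* had 9.0, 7.17, 8.96 and 7.84 at dawn, against 5.83, 4.15, 5.8 and 4.82 at dusk, a difference of 3.09 ± 0.3 (adjusted p = 0.00025). *LNK4* differed by 2.42 ± 0.25 (adjusted p = 0.000347) and *LNK2* by 2.38 ± 0.22 (adjusted p = 0.000204), with no overlap of the arrays in either. *LNK1* had 7.33, 5.96, 7.35 and 6.57 at dawn, against 6.27, 5.13, 6.23 and 5.26 at dusk, a difference of 1.08 ± 0.18 (adjusted p = 0.00457). In *LNK1* the array of 92 h lay under both CT8 arrays, so the windows overlapped, and the call was lost with 1 mean for each window (adjusted p = 0.0981).

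Of the 5 pseudo-response regulators the later-acting *PRR5*, *PRR3* and *TOC1* were lower at dawn, and the early *PRR9* and *PRR7* were not called (median of the 5, -1.66). The share of all genes lower at dawn was 9.02%. *TOC1*, a repressor of *CCA1* and *LHY*, had 4.65, 5.58, 4.81 and 5.47 at dawn, against 6.98, 6.97, 7.02 and 6.86 at dusk, a difference of -1.83 ± 0.09 (adjusted p = 1.34e-05). *PRR3* had 3.56, 4.72, 4.09 and 4.91 at dawn, against 6.76, 6.46, 6.98 and 6.43 at dusk, a difference of -2.33 ± 0.12 (adjusted p = 1.34e-05). *PRR5*, which represses the same MYB-like genes, differed by -1.66 ± 0.11 (adjusted p = 4.17e-05), and in all of these 3 genes every dawn array lay under every dusk array. All dawn arrays of *PRR5* and both CT0 arrays of *PRR3* lay under 4.5, where a level is not shown to stand above background. *PRR9* showed 4.96, 4.04, 5.54 and 4.24 at dawn, against 4.59, 3.75, 5.03 and 4.14 at dusk, a difference of 0.32 ± 0.2 (adjusted p = 0.328). *PRR7* showed 4.98, 3.68, 5.76 and 4.11 at dawn, against 6.0, 4.37, 5.8 and 4.27 at dusk, a difference of -0.48 ± 0.17 (adjusted p = 0.0818). Both had CT0 and CT8 levels above those of CT20 and CT12, and their highest mean fell at CT4. *PRR7* was called with all 24 arrays in the fit (adjusted p = 0.0388) and without the array of 96 h (adjusted p = 0.0104), and *PRR9* with the covariate for the 25th percentile (adjusted p = 0.0258).

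The genes of the evening complex and *GI* were all lower at dawn, 5 of 5, with no overlap between windows (median, -0.97). Of all 18859 genes 9.02% were called lower at dawn, and 2281 lay lower at dawn without overlap. *LUX*, the DNA-binding member of the complex, had 4.77, 5.49, 5.02 and 5.4 at dawn, against 6.99, 6.73, 6.78 and 6.61 at dusk, a difference of -1.61 ± 0.11 (adjusted p = 4.92e-05). *BOA*, its close relative, differed by -1.12 ± 0.16 (adjusted p = 0.0021), *ELF4* by -0.97 ± 0.14 (adjusted p = 0.00239) and *ELF3*, which bridges ELF4 and LUX, by -0.87 ± 0.09 (adjusted p = 0.00029). *GI*, a protein that stabilizes the F-box photoreceptor ZTL, had 4.17, 4.33, 4.24 and 4.22 at dawn, against 5.69, 4.83, 5.71 and 4.56 at dusk, a difference of -0.96 ± 0.09 (adjusted p = 0.000246). Within the dusk arrays of *GI* both CT8 arrays stood about 1 above the CT12 arrays, which lay nearer to the dawn arrays. All dawn arrays of *GI*, and those of *BOA* except that of 92 h, lay under the expression level of 4.5. There a level is not shown to stand above background, and *GI* passed the filter through other arrays.

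Of the 3 blue-light photoreceptors with an F-box, *FKF1*, which targets repressors of flowering for degradation, was lower at dawn, with 3.79, 4.16, 3.86 and 4.12 at dawn, against 6.81, 6.07, 6.7 and 6.04 at dusk, a difference of -2.42 ± 0.1 (adjusted p = 6.86e-06). All 4 dawn arrays of *FKF1* lay under the expression level of 4.5, so that it passed the filter through other arrays and no fold is given. *ZTL*, whose protein marks TOC1 and PRR5 for degradation, showed 0.05 ± 0.09 (adjusted p = 0.732) and *LKP2* -0.04 ± 0.12 (adjusted p = 0.839). *CHE*, a TCP factor that binds the *CCA1* promoter, showed -0.02 ± 0.11 (adjusted p = 0.926), with its highest mean at CT4. Over all 25 clock genes 9 were higher at dawn, 10 were lower and 6 were not called, against 15.4% of all genes called in either direction.

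**Figure D2:**
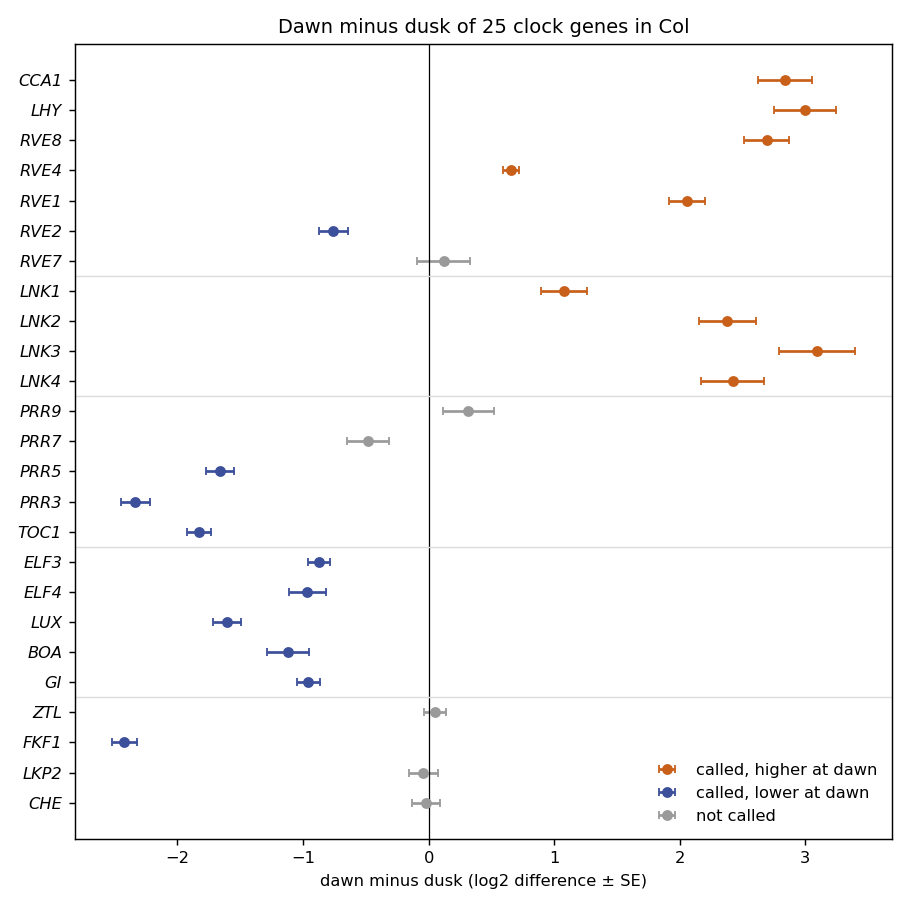
Dawn minus dusk in Col as a log2 difference with its SE from limma (x axis) for 25 clock genes (y axis), in the order of their groups. The *LNK* genes and *CCA1*, *LHY*, *RVE8* and *RVE1* lie above 1, *PRR5*, *PRR3*, *TOC1*, *LUX*, *BOA* and *FKF1* under -1, and *RVE7*, *PRR9*, *PRR7*, *ZTL*, *LKP2* and *CHE*, in grey, were not called.

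The comparison of dawn with dusk holds a pair of comparisons between times 12 h apart that share no arrays, CT0 minus CT12 and CT20 minus CT8, although both rest on the same estimate of the spread. CT0 minus CT12 called 1499 genes (7.95%), 627 of them higher at CT0, and CT20 minus CT8 called 1735 (9.2%), 770 of them higher at CT20. Leaving out 1 of its own 4 arrays left between 436 and 816 calls in CT0 minus CT12 (lowest without the array of 84 h) and between 661 and 980 in CT20 minus CT8 (lowest without that of 80 h). Both called 611 genes, which is 40.8% of the first list and 35.2% of the second, and 592 of these had the same sign in both. The remaining 19 had opposite signs, and 16 of them were higher at CT0 than at CT12 but lower at CT20 than at CT8. *PRR7* was such a gene, with 1.05 ± 0.23 for CT0 minus CT12 (adjusted p = 0.0275) and -2.01 ± 0.23 for CT20 minus CT8 (adjusted p = 0.00118). So was *PIF4*, which encodes a basic helix-loop-helix factor that promotes elongation, with 7.19, 5.19, 7.73 and 5.96 at dawn, against 7.73, 6.12, 7.3 and 6.18 at dusk, and differences of 1.31 ± 0.26 (adjusted p = 0.0162) and -1.94 ± 0.26 (adjusted p = 0.00223). *PIF4* was high at CT0 and CT8 and low at CT12 and CT20, and its mean over both windows differed by only -0.31 ± 0.18 (adjusted p = 0.276).

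Among the other genes with opposite signs, singled out after their values were seen, were *MYBL2*, a repressor of flavonoid genes, with 1.52 and -1.44, and the CONSTANS-like gene *COL5* with 1.55 and -1.3 (CT0 minus CT12 and CT20 minus CT8). Both had their highest mean at CT4, as had all of the 16 genes, but choosing genes by high levels at CT0 and CT8 favours such a peak. In the clock, *LNK1* differed by 2.15 ± 0.26 for CT0 minus CT12 (adjusted p = 0.00186) and 0.01 ± 0.26 for CT20 minus CT8 (adjusted p = 0.981), and *RVE2* by -1.67 ± 0.16 (adjusted p = 0.000648) and 0.15 ± 0.16 (adjusted p = 0.605), while *CCA1* differed by 3.21 ± 0.3 (adjusted p = 0.000619) and 2.47 ± 0.3 (adjusted p = 0.00147). The difference between these comparisons was not itself tested.

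**Figure D3:**
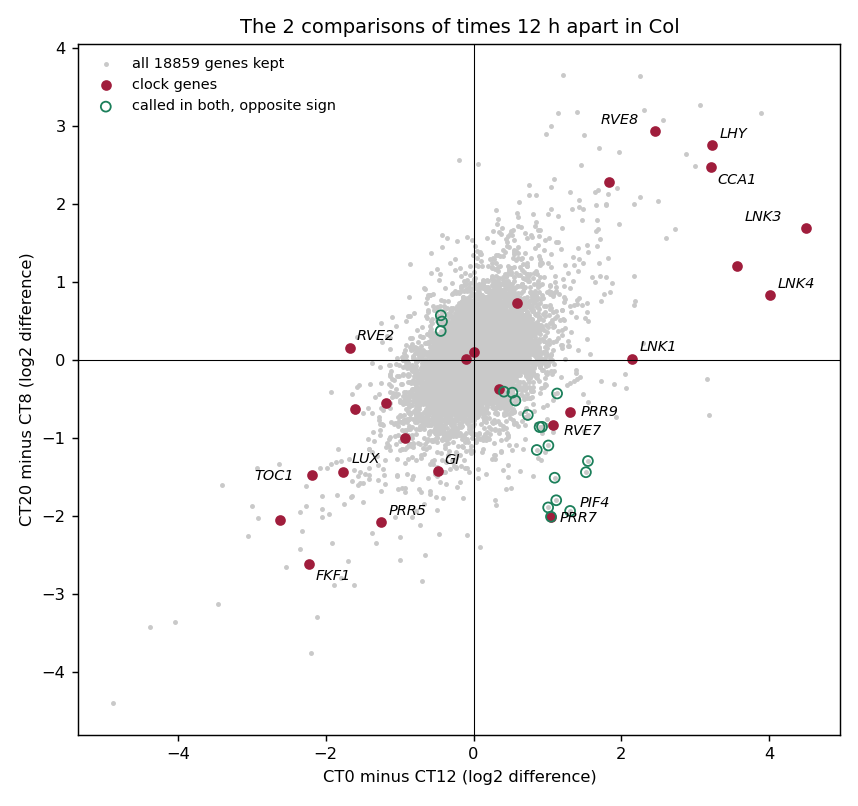
CT0 minus CT12 (x axis) against CT20 minus CT8 (y axis) in Col, both as log2 differences, for the 18859 genes kept (grey), the 25 clock genes (red) and the 19 genes called in both with opposite signs (green circles). *LHY*, *CCA1* and *RVE8* are high and *FKF1* low on both axes, *LNK1* and *RVE2* differ on the x axis alone, and *PRR7* and *PIF4* lie at the lower right.

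Fewer genes were called between the neighbouring times within a window. CT0 minus CT20 called 286 genes (1.52%), 209 of them higher at CT0, but both the count and the list rested on single arrays. Leaving out the array of 72 h kept a like count but replaced many of the genes. Leaving out any other Col array lowered the count. CT12 minus CT8 called 2 genes (0.0106%) with limma, while 2037 passed an unadjusted p under 0.05. These were *BBX28*, a B-box gene, at -1.59 (adjusted p = 0.0243) and *At2g30600* at -1.0 (adjusted p = 0.0324). *BBX28* also differed within the dawn window, by 1.82 for CT0 minus CT20 (adjusted p = 0.00735). Of the clock genes, *TOC1*, *PRR3*, *ELF3* and *RVE2* were lower at CT0 than at CT20, with differences of -0.79 (adjusted p = 0.0361), -0.99 (adjusted p = 0.0361), -0.72 (adjusted p = 0.0383) and -1.07 (adjusted p = 0.0314), and *PRR7* was higher at CT0, by 1.48 (adjusted p = 0.0328).

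Since the days are the replicates from which genes were called, called genes had to differ little between them over both windows, but levels at single times could still move. Among the genes higher at dawn the median difference was 0.53 on day 4 and 0.51 on day 5, and among those lower at dawn -0.46 and -0.40. At CT12 all of the 10 leading genes higher at dawn had a higher level on day 5 (108 h) than on day 4 (84 h), with a median gap of 0.72, and 68.0% of all genes higher at dawn did so, against 57.0% of all genes kept. At CT0 all of the 10 leading genes lower at dawn were higher on day 5 (96 h) than on day 4 (72 h), with a median gap of 0.96, and 69.0% of all genes lower at dawn did so, against 59.4% of all genes kept. The other low time of each set showed less of this. At CT8, 8 of the 10 leading genes higher at dawn were higher on day 5 (median gap, 0.20) and 54.4% of all genes higher at dawn, against 52.2% of all genes kept, and at CT20, 5 of the 10 leading genes lower at dawn (median gap, -0.01) and 60.5% of all genes lower at dawn, against 58.3%. At their high times, the leading genes higher at dawn were higher on day 5 in 10 of 10 cases at CT20 (median gap, 0.26) and in 3 of 10 at CT0, and those lower at dawn in 2 of 10 at CT8 and in 0 of 10 at CT12. Each of these is 1 array against 1, and no test was made.

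Genes of photoperiodic flowering were mostly higher at dawn. Of 14 genes 11 were higher, 1 was lower and *CO* and *COL5* were not called (median, 1.13), beside 6.33% of all genes higher and 9.02% lower. The DOF factors *CDF1*, *CDF2* and *CDF3*, which repress *CO* and *FT*, differed by 1.43 ± 0.2, 1.18 ± 0.14 and 0.73 ± 0.14. *FT*, the mobile flowering signal, was higher by 1.08 ± 0.13 (adjusted p = 0.000668) and its relative *TSF* by 0.56 ± 0.15 (adjusted p = 0.0337), both with all dusk arrays under 4.5. The B-box genes *BBX18*, with 9.28, 8.86, 9.19 and 9.09 at dawn, against 6.86, 6.47, 7.03 and 7.01 at dusk, and *BBX25* differed by 2.27 ± 0.13 and 2.17 ± 0.12 (adjusted p = 2.59e-05 and 2.09e-05), and *COL1*, a close relative of *COL2*, by 1.98 ± 0.16 (adjusted p = 9.63e-05). *COL9*, a B-box gene that delays flowering, was the exception, with 4.29, 6.11, 4.94 and 6.11 at dawn, against 7.57, 7.56, 7.43 and 7.52 at dusk, a difference of -2.16 ± 0.15 (adjusted p = 5.52e-05). *CO*, the activator of *FT*, showed 0.16 ± 0.13 (adjusted p = 0.436).

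Of 9 genes of elongation growth kept out of 11 (*PIL1* and *YUC8* did not pass the filter), 2 were higher at dawn and 1 was lower, beside 15.4% of all genes called in either direction. *PIF5*, like *PIF4* a promoter of elongation, had 8.04, 7.1, 8.26 and 7.41 at dawn, against 7.25, 5.82, 6.82 and 5.9 at dusk, a difference of 1.25 ± 0.13 (adjusted p = 0.000358). The array of 80 h lay above that of 92 h, so the windows overlapped, and the call was lost with 1 mean for each window (adjusted p = 0.0593). *PIF7* differed by 0.46 ± 0.13 (adjusted p = 0.0407) and kept its call in only 10 of 22 settings. The auxin-response repressor gene *IAA29* was lower at dawn, with a difference of -1.13 ± 0.17 (adjusted p = 0.00253), which the covariate for the 25th percentile moved to an adjusted p of 0.0669. The other 6, among them *PIF1*, *PIF3* and *HFR1*, ranged between -0.37 and 0.14.

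Genes of the light-harvesting antenna were higher at dawn in 9 of 15 cases and lower in none (median, 0.27), beside 6.33% of all genes higher. *LHCB2.3* had 12.49, 12.06, 12.51 and 12.3 at dawn, against 11.6, 10.36, 11.35 and 10.29 at dusk, a difference of 1.44 ± 0.12 (adjusted p = 0.00012). Its windows did not overlap, and the CT12 arrays were the lowest. *LHCB2.1*, whose sequence is nearly the same, so that probes may read both, differed by 0.73 ± 0.12 (adjusted p = 0.00322), *LHCB4.3* by 0.65 ± 0.14 (adjusted p = 0.0163) and *LHCB4.2* by 0.37 ± 0.08 (adjusted p = 0.0117). The 6 genes not called ranged between 0.02 and 0.17. With the covariate for the 25th percentile, or with 1 mean for each window, 1 of the 9 calls was left, that of *LHCB2.3*. With no expression filter 4 genes were called, and the count also fell when any single dawn or dusk array was left out.

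Of 17 genes of chlorophyll synthesis 5 were higher at dawn, 1 was lower and 11 were not called (median, 0.08), beside 15.4% of all genes called in either direction. *CHLH*, a subunit of magnesium chelatase, had 7.51, 7.43, 7.84 and 7.67 at dawn, against 6.67, 6.18, 6.85 and 6.3 at dusk, a difference of 1.11 ± 0.1 (adjusted p = 0.000191). *GUN4*, which activates that enzyme, differed by 0.89 ± 0.09 (adjusted p = 0.00025) and *HEMA1*, the glutamyl-tRNA reductase at the start of the pathway, by 0.87 ± 0.11 (adjusted p = 0.000852). *CAO*, which makes chlorophyll b, had 8.38, 7.83, 8.37 and 8.11 at dawn, against 6.98, 6.5, 6.84 and 6.66 at dusk, a difference of 1.43 ± 0.1 (adjusted p = 5.83e-05). *PORB*, a protochlorophyllide oxidoreductase, was lower at dawn, with a difference of -0.6 ± 0.12 (adjusted p = 0.00831), and this call was lost with the covariate for the 25th percentile or with 1 mean for each window (adjusted p up to 0.161). The genes not called ranged between -0.34 and 0.16.

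Of 20 genes of starch breakdown 11 were lower at dawn, 2 were higher and 7 were not called (median, -0.68), beside 9.02% of all genes lower and 6.33% higher. *PHS2*, a cytosolic glucan phosphorylase, had 6.21, 6.57, 6.35 and 6.46 at dawn, against 8.42, 8.26, 8.56 and 8.21 at dusk, a difference of -1.97 ± 0.09 or 3.91-fold lower (adjusted p = 1.34e-05). *ISA3*, a debranching enzyme, had 5.54, 5.7, 5.55 and 5.53 at dawn, against 7.1, 7.02, 7.27 and 7.07 at dusk, a difference of -1.53 ± 0.09 (adjusted p = 3.16e-05). In both genes the windows stood more than 1 apart. *DPE1*, which recycles small glucans in the plastid, differed by -1.44 ± 0.11 (adjusted p = 7.45e-05), the alpha-amylase gene *AMY3* by -1.43 ± 0.09 (adjusted p = 4.17e-05) and *GWD1*, the kinase that phosphorylates starch at the onset of its breakdown, by -1.4 ± 0.07 (adjusted p = 1.34e-05). Among the beta-amylases *BAM3* and *BAM4* were lower at dawn (-0.64 ± 0.08 and -0.36 ± 0.08), while *BAM9* had 7.25, 7.42, 7.13 and 7.48 at dawn, against 5.75, 5.99, 6.02 and 6.35 at dusk, a difference of 1.29 ± 0.11 (adjusted p = 0.00012), and *BAM1* was higher by 0.43 ± 0.09 (adjusted p = 0.0149), a call lost with the covariate for the 25th percentile or without the array of 72, 80, 84 or 92 h (adjusted p up to 0.153). *BAM9* lacks catalytic activity. The other 7, among them *MEX1*, the maltose exporter, ranged between -0.71 and 0.17.

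Genes of starch synthesis showed no common direction, with 2 higher, 3 lower and 8 not called of 13 (median, -0.05), beside 15.4% of all genes called in either direction. *GBSS1*, the starch synthase that makes amylose, had 9.29, 9.19, 8.82 and 9.25 at dawn, against 5.84, 5.95, 6.46 and 7.05 at dusk, a difference of 2.81 ± 0.24 or 7.03-fold (adjusted p = 0.000125). Its 4 dawn arrays lay between 8.82 and 9.29, above the highest dusk array at 7.05. *SS4*, which starts new granules, was lower at dawn, with a difference of -0.94 ± 0.07 (adjusted p = 8.29e-05), as were the branching enzyme gene *SBE2.1* with -0.75 ± 0.08 (adjusted p = 0.00028) and *PGM1*, a plastid phosphoglucomutase, with -0.58 ± 0.06 (adjusted p = 0.000503). *SS2* was higher by 0.44 ± 0.11 (adjusted p = 0.0231), a call that 7 of 22 settings lost. *ISA1*, *APL1*, *APS1* and the other 5 genes ranged between -0.25 and 0.23.

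The phenylpropanoid and flavonoid pathway was higher at dawn in 15 of 28 genes and lower in none (median, 0.34, 2 of the 30 genes listed, *MYB11* and *MYB90*, having failed the filter), beside 6.33% of all genes higher. For CT20 minus CT8 15 of the 28 were higher and none lower, beside 770 higher and 965 lower of all 18859 genes. For CT0 minus CT12 5 were higher and 1 lower, beside 627 and 872 of all genes. The largest differences were those of anthocyanin synthesis. *DFR*, which commits the pathway to anthocyanins, had 10.12, 10.03, 9.5 and 9.78 at dawn, against 6.8, 8.25, 7.26 and 8.38 at dusk, a difference of 2.18 ± 0.2 or 4.54-fold (adjusted p = 0.000174). *LDOX*, the next enzyme, had 8.69, 8.46, 7.98 and 8.21 at dawn, against 5.9, 6.95, 6.46 and 7.11 at dusk, a difference of 1.73 ± 0.22 (adjusted p = 0.000973). In both genes the windows did not overlap, and within the dusk window the CT12 arrays were above the CT8 arrays. *MYB75*, the transcription factor that activates them, had 7.45, 7.66, 7.31 and 7.65 at dawn, against 5.71, 6.33, 6.18 and 6.76 at dusk, a difference of 1.27 ± 0.13 (adjusted p = 0.000317). The early flavonoid genes *F3H* (1.17 ± 0.15), *CHS* (1.16 ± 0.15) and *TT7* (1.04 ± 0.18) followed, then *PAL2* (0.71 ± 0.09), *CCR1* (0.66 ± 0.08) and *PAL1* (0.58 ± 0.12) of the general and lignin branches. The 13 genes not called, which include the lignin genes *HCT*, *CYP98A3* and *CAD5* and the flavonol regulator *MYB12*, ranged between -0.24 and 0.32. With the covariate for the 25th percentile 9 of the 28 were higher at dawn, beside 620 of all 18859 genes.

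Cold-response genes were lower at dawn in 8 of 12 genes and higher in none (median, -1.14), beside 9.02% of all genes lower, in seedlings kept at constant temperature. *COR27*, a cold-regulated gene with a role in the clock, had 4.06, 5.21, 4.86 and 5.22 at dawn, against 8.49, 8.03, 8.2 and 7.8 at dusk, a difference of -3.29 ± 0.28 (adjusted p = 0.00012). *RD29A*, which responds to cold and drought, had 5.64, 5.98, 5.71 and 5.96 at dawn, against 8.0, 8.06, 7.83 and 7.99 at dusk, a difference of -2.15 ± 0.07 (adjusted p = 2.05e-06). The dusk arrays of *RD29A* spanned only 7.83 to 8.06, and its adjusted p was the smallest of the genes named. *CBF3*, an activator of the cold regulon, had 4.04, 4.13, 5.24 and 4.19 at dawn, against 7.08, 6.19, 7.02 and 6.31 at dusk, a difference of -2.25 ± 0.29 (adjusted p = 0.00101). Except for that of 96 h, its dawn arrays lay under 4.5, where a level is not shown to stand above background. *COR15B*, which encodes a chloroplast protein that protects membranes and may share probes with *COR15A*, differed by -1.98 ± 0.24 (adjusted p = 0.000754) and *COR15A* by -1.32 ± 0.16, while *ERD7*, *ERD10* and *COR47* lay between -1.22 and -0.93. *CBF2*, *ICE1*, *ZAT12* and *RAV1* were not called (-0.43 to 0.01), and *CBF1* and *GOLS3* did not pass the filter. With the covariate for the 25th percentile 8 of the 12 were lower at dawn, beside 488 of all 18859 genes.

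**Figure D4:**
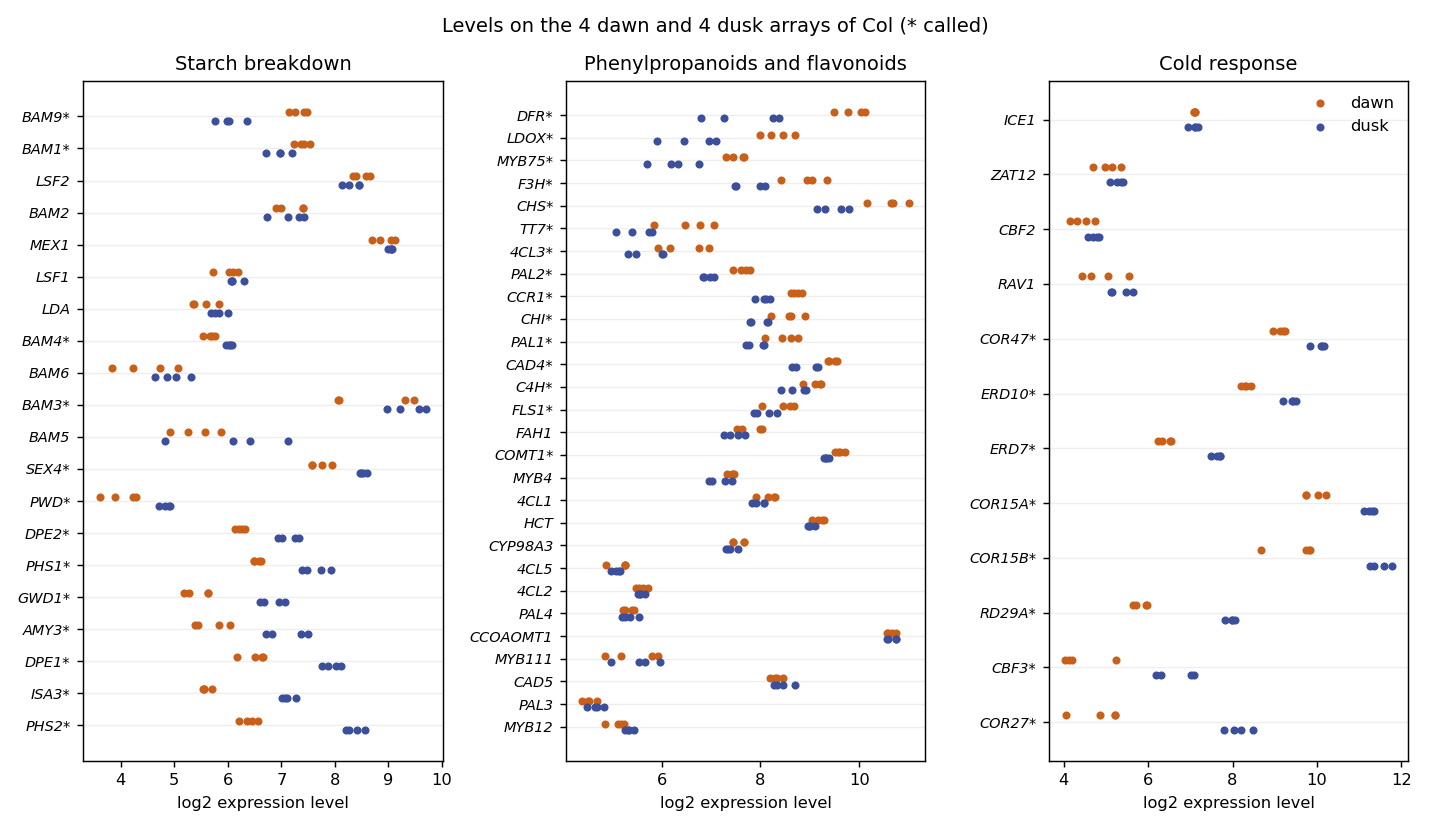
Log2 expression levels (x axis) of the genes kept of starch breakdown, of phenylpropanoid and flavonoid synthesis and of the cold response (y axis), with 1 point for each of the 4 dawn (orange, above) and 4 dusk (blue, below) arrays of Col, sorted by their difference, and an asterisk at called genes. The dusk points of *PHS2*, *ISA3* and *COR27* lie to the right of all dawn points, those of *DFR*, *LDOX* and *BAM9* to the left.

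Of 10 genes of nitrate and sulfate assimilation 2 were higher at dawn and 8 were not called, which ranged between -0.50 and 0.38 (median of the 10, 0.07). This count is near the share of all genes called in either direction, 15.4%. *APR2*, the main isoform of APS reductase, had 10.08, 10.33, 9.94 and 10.33 at dawn, against 9.15, 9.74, 9.54 and 10.01 at dusk, a difference of 0.56 ± 0.11 (adjusted p = 0.00753), and the nitrate reductase gene *NIA2* differed by 0.33 ± 0.08 (adjusted p = 0.0265). In both genes the windows overlapped, and both calls were lost with 1 mean for each window. That of *NIA2* alone was also lost with all 24 arrays in the fit, with no expression filter and with the covariate for the 25th percentile. Leaving out some single arrays ended it as well. Of 64 genes kept with chloroplast identifiers 1 was called, higher at dawn (median, -0.18), and of 17 with mitochondrial identifiers likewise 1 (median, 0.26).

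The last question was whether the dawn to dusk difference was the same in *rve8-1* at the same harvest times. The difference between the genotypes, tested over all 24 arrays, was called for 782 genes (4.15%), with 387 positive and 395 negative, *rve8-1* minus Col, and for 517 without the *rve8-1* array of 108 h. It uses the same Col arrays as the comparison within Col, so the values of each genotype are given side by side. Of the clock genes 20 of 25 were called. *CCA1* had 7.2, 5.55, 7.07 and 5.5 at dawn, against 6.3, 5.03, 6.83 and 5.68 at dusk in *rve8-1*, so that its difference was 0.37, against 2.84 in Col (adjusted p = 0.000106). *LNK4* had 7.66, 4.99, 7.97 and 5.5 at dawn, against 8.85, 7.2, 8.8 and 7.9 at dusk in *rve8-1*, a difference of -1.66, against 2.42 in Col (adjusted p = 1.09e-05). By harvest time the order of the windows of *LNK4* was thus turned round in *rve8-1*, and the same held for *LNK1*, *LNK2* and *LNK3* (-1.3, -1.01 and -1.14). Over all its arrays *LNK4* ran from 4.99 (92 h) to 9.37 (76 h) in *rve8-1*, against 4.72 (88 h) to 9.16 (96 h) in Col. *CCA1* ran from 4.25 (88 h) to 7.76 (100 h) in *rve8-1*, against 4.22 (84 h) to 7.88 (72 h) in Col.

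*TOC1* differed by -0.28 in *rve8-1*, against -1.83 in Col (adjusted p = 0.000192), and *PRR3* by -0.25, against -2.33 (adjusted p = 1.72e-05). *RVE2* differed by 1.4 in *rve8-1*, against -0.76 in Col (adjusted p = 1.86e-05). *PRR7*, not called in Col, differed by -2.33 in *rve8-1*, against -0.48 in Col (adjusted p = 5.22e-05). The 5 clock genes without a called difference between the genotypes were *GI*, *PRR5*, *ELF4*, *ZTL* and *LKP2*. *GI* differed by -1.04 in *rve8-1*, against -0.96 in Col, and the difference between the genotypes was -0.09 ± 0.18 (adjusted p = 0.885).

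Of the 20 genes of starch breakdown, the difference between genotypes was called for 9, all positive, and *PHS2* differed by -0.56 in *rve8-1*, against -1.97 in Col (adjusted p = 0.000152). Of the 28 phenylpropanoid and flavonoid genes 1, *MYB111*, was called, near the 4.15% of all genes. *DFR* had 10.17, 9.48, 9.79 and 8.43 at dawn, against 8.51, 6.52, 8.61 and 6.78 at dusk in *rve8-1*, a difference of 1.86, against 2.18 in Col, and the difference between the genotypes was -0.32 ± 0.41 (adjusted p = 0.796). For *LDOX* these values were 1.55 in *rve8-1* and 1.73 in Col, for *F3H* 1.25 and 1.17, and for *MYB75* 1.2 and 1.27, with adjusted p between 0.884 and 0.956 for the difference between the genotypes. A missed threshold does not show that the genotypes were alike, and the SE of these differences was between 0.27 and 0.41. Of the 14 genes of photoperiodic flowering 11 were called, 10 of them negative, with *COL2* at 0.55 in *rve8-1*, against 3.52 in Col (adjusted p = 1.35e-05). Of the 20 leading genes 17 were called, and *At1g07050* differed by -1.32 in *rve8-1*, against -4.64 in Col (adjusted p = 0.00122). The leading genes were chosen by extreme differences on the same Col arrays, which favours smaller values in *rve8-1*. Their count is thus no test of the genotype. Of the 12 cold genes 4 were called, all positive, while *CBF3* differed by -1.61 in *rve8-1*, against -2.25 in Col (adjusted p = 0.49).

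**Figure D5:**
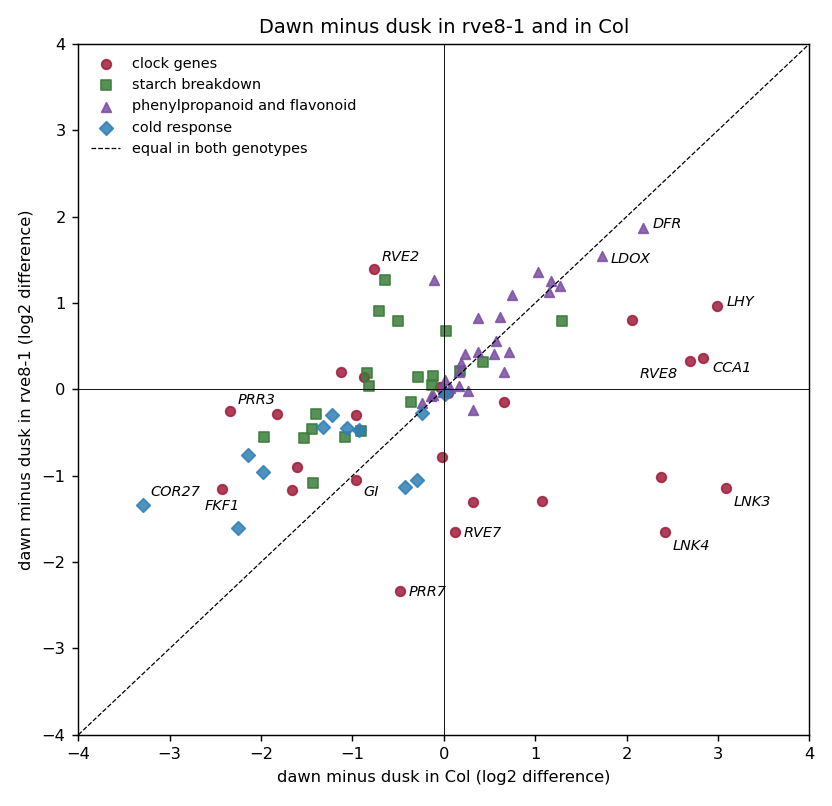
Dawn minus dusk in *rve8-1* (y axis) against dawn minus dusk in Col (x axis), both as log2 differences of the means of 4 arrays a side, for the kept clock genes, genes of starch breakdown, phenylpropanoid and flavonoid genes and cold genes, with the line of equal values dashed. *DFR* and *LDOX* lie near that line, *CCA1*, *LHY* and *RVE8* far under it, and *LNK3*, *LNK4* and *RVE2* on the opposite side of 0 in the 2 genotypes.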

How the data were processed

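RNA of 24 seedling samples, 12 of Col and 12 of *rve8-1*, was hybridized to AGRONOMICS1 arrays, 1 array for each harvest. With Aroma.Affymetrix the authors masked poor probes, applied RMA (background correction, normalization and summary over TAIR9 genes), and deposited log2 expression levels of 30237 genes. No further normalization was applied. There were 0 columns from other samples, and locus tags of the reference annotation were found for 29715 identifiers. Scanner intensities were not used here, so signal over background was not measured, and the number of arrays limits the precision.

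The filter kept genes above 4.5 in at least 4 of the 12 Col arrays. To these 12 arrays limma 3.58.1 in R 4.3.3 fitted 1 mean per circadian time (6 residual and 3.20 prior degrees of freedom), with two-sided tests and Benjamini-Hochberg adjustment over all genes kept. The difference between the genotypes came from a like model of all 24 arrays (12 residual degrees of freedom). Fits were tested on simulated data. Tables and figures were made with Python 3.11.15, numpy 2.4.6, pandas 2.3.3 and matplotlib 3.10.9.

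To learn whether arrays of 1 day pair with one another, day 5 minus day 4 differences were correlated over genes between the 4 times compared. All 6 pairs of these times were above 0.1 (median, 0.182), but over the 6 Col times of the fit only 9 of 15 pairs were (median, 0.136, lowest -0.137). An alternative fit took the day as a replicate block, and the deposited labels do not say that a day marks a shared batch.

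Named genes were all clock genes, the 10 highest and 10 lowest differences among called genes without overlap, and up to 4 called members per direction in each other list. Further members of the lists, such as *CDF1*, *FT*, *CO*, *GWD1*, *BAM3*, *CHS* and *PAL1*, and single genes of the comparisons between neighbouring or opposite times were chosen after their values were seen. Genes and lists were chosen with earlier results of these data known. *RVE6*, *CDF5* and *COR28* could not be matched to a locus by name and were left out of their lists, which are thus not complete. They were not shown to be missing from the data, and may stand there, or among the genes given above, under a locus number or another name. *LHCB1.1*, *LHCB1.2*, *LHCB1.3*, *LHCB1.5*, *LHCB2.2*, *KIN1* and *KIN2* had no row of their own in the table, and promoter sequences were not used here. Alternatives covered the arrays in the fit, the expression filter, scaling, the variance prior, the thresholds, the replicate block and each array left out, and, added after the data were seen, a covariate for each array's 25th percentile and each *rve8-1* array left out.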

Additional observations from a re-analysis of the deposited data

Results flagged for a closer look

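Single arrays stood apart from the other 3 of their window in 8 of the 154 sets of 4 arrays examined (gap to the nearest array over the whole range, against Dixon's critical value). Chance gives about 1 in 20 for 4 like arrays. Each window joins different circadian times, so that rate is no direct measure here. In *RVE8* the arrays that stood apart were the lowest dawn array (92 h, 7.16) and the highest dusk array (108 h, 5.36). The lowest dawn array stood apart in *HEMA1* (72 h, 9.45) and *COR15B* (72 h, 8.68), and the highest dawn array in *ISA3* (92 h, 5.70), *SS2* (116 h, 6.05) and *CBF3* (96 h, 5.24). In *At1g51090* it was the highest dusk array (84 h, 7.13).

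The dawn to dusk difference depended on the genotype in 20 of the 25 clock genes (limma, adjusted p under 0.05). As *rve8-1* minus Col, the difference was negative in *CCA1* (-2.47), *LHY* (-2.03), *RVE8* (-2.37), *RVE4* (-0.81), *RVE1* (-1.25), *RVE7* (-1.77), *LNK1* (-2.38), *LNK2* (-3.39), *LNK3* (-4.23), *LNK4* (-4.08), *PRR9* (-1.62), *PRR7* (-1.85) and *CHE* (-0.76). It was positive in *RVE2* (2.16), *PRR3* (2.08), *TOC1* (1.55), *ELF3* (1.01), *LUX* (0.71), *BOA* (1.32) and *FKF1* (1.27). All 4 arrays of each window entered on both sides, and *RVE8* is the gene that carries the insertion.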

How the results depend on the processing

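For dawn minus dusk, 1819 genes were called with 1 mean for each window over the 8 arrays, 1861 with no expression filter, 1277 at an adjusted p under 0.01, 278 with a difference of at least 1 as well, and 1108 with a covariate for each array's 25th percentile, against 2895. With 1 array left out this count ranged from 1804 to 3123. CT0 minus CT12 gave 762 with no filter, 500 at 0.01, 310 with a difference of at least 1 and 709 with the covariate (436 to 1575 with 1 array left out), and CT20 minus CT8 gave 1020, 725, 448 and 970 (661 to 1810). The difference between the genotypes was called for 395 genes at 0.01 and 243 with a difference of at least 1 (517 to 875 with 1 array left out). CT0 minus CT20 gave 17 genes with all 24 arrays in the fit, 1 with no filter, 709 with levels above 4.5 on all 12 Col arrays, 1057 with levels above 6 on 4 of them, 184 after centring on medians, 932 with a trended and robust prior, 44 with no moderation, 1 at 0.01 and 52 with a difference of at least 1 (3 to 281 with 1 array left out). CT12 minus CT8 gave 23 with all 24 arrays, 0 with no filter, on all 12 arrays, with no moderation or at 0.01, 81 above 6, 67 with the trended and robust prior, and 1 with quantile normalization, a difference of at least 1 or the covariate (0 to 3 with 1 array left out). The cause of these shifts was not tested, except that stricter thresholds call fewer genes by construction.

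Of the genes called between dawn and dusk, 995 were also called with the covariate and 1706 with 1 mean for each window. The 25th percentile itself separates the windows, so a covariate for it takes up part of any dawn to dusk difference. The share higher at dawn among called genes was 41.2%, and it was 35.6% after centring on medians, 46.6% after quantile normalization and 56.0% with the covariate. With the day as a replicate block 3183 genes were called between dawn and dusk, 1702 for CT0 minus CT12, 1971 for CT20 minus CT8, 376 for CT0 minus CT20, 2 for CT12 minus CT8 and 815 between the genotypes, and the block ended the call of none of the named genes. Of 77 named genes 71 were called, 58 of them in every setting that kept the gene, and none changed direction where called. The stricter thresholds (adjusted p under 0.01, or a difference of at least 1) were not among the settings counted here or for single genes above. Where an array was left out, its time kept a lone array, taken to vary as much as the other times.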

Other observations

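Some of the largest differences within the dawn window lay outside the lists, in genes chosen after their values were seen. *At3g55240* was higher at CT0 than at CT20 by 2.67, *BBX28* by 1.82, *MRU1* by 1.73, *At1g23390* by 1.69 and *SAUR28*, of an auxin-responsive family, by 1.62, and *PIF4* by 1.88. On the other side *BT2* showed -1.51, *COL9* -1.5 and the beta-amylase gene *BAM3* -1.33 for CT0 minus CT20. The count of such genes rested on single arrays, as given above.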
